A study of Mus musculus with 6 samples.

Results

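The regulators of the NRF2 system are the genes whose proteins switch the antioxidant response on and off, as distinct from the enzymes that the response makes. They were taken by name from the deposited expression table of mouse liver endothelial cells: Nfe2l2, Nfe2l1, Bach1, Mafg, Mafk, Maff, Keap1, Cul3 and Sqstm1, 9 genes of 39179 rows. All 9 names were found. Mafg had 2 rows, of which ENSMUSG00000053906 was listed at 0 in all 6 libraries and matched no identifier of GENCODE M21, so Mafg stands for ENSMUSG00000051510 throughout. The libraries come from male wild-type 129S6/SvEvTac mice that ate a purified diet from 3 weeks of age and were sampled after 4 weeks, at 7 weeks of age. In the high-iron group the diet held 10000 ppm carbonyl iron, and in the control-iron group 37 ppm iron as ferric citrate. Iron dose and iron compound thus differed together and cannot be told apart. Both groups shared strain, sex, age, purified base diet and sort (CD45-, CD31+, lineage-, MHCII-, CD64-, CD146+), and each has 3 biological replicates. The labels do not say whether a replicate is 1 mouse or several.

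As background, NRF2 (the Nfe2l2 product) is a transcription factor that is made continuously and destroyed almost as fast: KEAP1 holds it for the CUL3 ubiquitin ligase, and oxidants or electrophiles that modify KEAP1 let NRF2 escape. Free NRF2 pairs with a small MAF protein on antioxidant response elements, which BACH1 with the same small MAF partners occupies as a repressor until heme removes it. Much of this control acts on protein, so mRNA levels show the transcript of each regulator and neither its protein amount nor its activity. Iron loading of the liver is known to raise oxidant stress, and the comparison asked how endothelial transcripts differ after dietary iron.

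Depth was 12963510 to 21663543 reads assigned to genes per library. CPM here is a gene's reads divided by its library's scaled total, and levels of different genes are compared as RPKM, which divides by gene length. Endothelial markers were abundant in every library: the summed level of 12 such genes was 19987 to 21233 CPM in high-iron and 20896 to 22967 CPM in control-iron libraries, and limma called none of the 12. Their median log2 fold change was -0.19, 10 were negative and 3 had an unadjusted p under 0.05, while 1 was called by DESeq2 and 0 by edgeR. Over all genes tested limma called 1.02%, edgeR 0.863% and DESeq2 3.27%, and 12.1% had an unadjusted p under 0.05 by limma. Kupffer cell and macrophage markers, 15 genes, summed to 263 to 524 CPM in high-iron and 76.7 to 177 CPM in control-iron libraries, with 3 of the 14 tested called and all 14 positive. Their median log2 fold change was 1.70, all 14 had an unadjusted p under 0.05 by limma, and edgeR called 2 and DESeq2 10. MHC class II genes summed to 181 to 571 CPM in high-iron and 43.8 to 82.5 CPM in control-iron libraries, with 4 of 6 called higher. The median log2 fold change of these 6 was 2.06, and edgeR called 4 and DESeq2 all 6. Hepatocyte markers summed to 623 to 1212 CPM in high-iron and 272 to 1221 CPM in control-iron libraries, with all 12 positive, a median log2 fold change of 0.59, none called by limma or edgeR, 2 called by DESeq2 and 2 at an unadjusted p under 0.05. Lymphocyte markers summed to 7.43 to 13.6 CPM in high-iron and 2.09 to 4.73 CPM in control-iron libraries, with 1 of 2 tested called (Ighm), and of 7 tested stellate cell markers 1 was called (Hgf). Erythroid markers, 3 genes, summed to 917, 3470 and 619 CPM in high-iron replicates 1 to 3. In control-iron replicates 1 to 3 they summed to 867, 2871 and 1086 CPM, and limma called none of the 3. The part of these cells in the results was not tested. In bulk RNA of this kind, fewer cells of a type and less RNA per cell cannot be told apart.

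The promoters of the regulators differ in whether they hold the core of the antioxidant response element near the start site, and they are shown because NRF2 is known to act on the genes of some of its own regulators. The letters TGACNNNGC (N is any base) were searched on both strands in RefSeq windows of GRCm38.p6 that run from 250 bases before to 50 bases after an annotated start. The 9 genes have 15 such windows, since Nfe2l1 has 5 annotated starts and Maff has 3. A match was present for 4 of the 9 genes, against 14.0% of 27025 genes with a window, and in 4 of the 15 windows, against 12.4% of 32851 windows. These matches follow, each read in the direction of the motif, with the motif in capitals and 10 flanking bases on each side.
Nfe2l2: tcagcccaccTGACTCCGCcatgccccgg
Maff: gggcgtctcaTGACTCTGCcactggaaag
Mafg: ctcgccgggtTGACCGTGCtcctgcagag
Mafk: tccccagtacTGACACCGCttccgggatc
Counted along the gene, the matched bases begin 240 bases before the start in Nfe2l2, 112 in Maff, 222 in Mafg and 13 in Mafk, and the Mafg and Mafk matches lie on the strand opposite to the gene. The AP-1 type letters TGAGTCA were in none of the 15 windows, against 5.95% of genes. A match of letters is a description of the sequence and does not show binding.

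The whole windows of the 2 genes with the smallest p-values are given for comparison. Mafg (chr11:120633498-120633797, minus strand) carries its match in capitals, as the reverse complement of the form above.
Mafg: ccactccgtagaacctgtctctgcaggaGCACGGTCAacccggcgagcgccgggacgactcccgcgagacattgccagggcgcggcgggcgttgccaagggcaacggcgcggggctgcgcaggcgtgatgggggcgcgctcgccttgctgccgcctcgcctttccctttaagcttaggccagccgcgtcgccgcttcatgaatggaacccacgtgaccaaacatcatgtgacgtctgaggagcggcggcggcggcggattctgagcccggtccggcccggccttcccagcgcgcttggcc
Sqstm1: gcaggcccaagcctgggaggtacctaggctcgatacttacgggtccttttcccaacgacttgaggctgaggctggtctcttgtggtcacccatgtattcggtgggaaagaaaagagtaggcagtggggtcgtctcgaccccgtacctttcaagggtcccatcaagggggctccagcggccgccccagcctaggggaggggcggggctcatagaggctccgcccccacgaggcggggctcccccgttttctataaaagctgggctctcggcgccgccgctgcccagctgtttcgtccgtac
The Sqstm1 window (chr11:50210771-50211070, minus strand) holds no TGACNNNGC, and says nothing of sequence farther away.

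Among the regulators, a single gene passed the test, the small MAF gene Mafg, which rose 1.52-fold, to 239 ± 6.58 CPM in high-iron libraries, against 157 ± 6.40 CPM in control-iron libraries (SD, n = 3 each). Sqstm1, which encodes the autophagy receptor p62, was 1.77-fold higher at the mean and missed the threshold narrowly. NRF2's own transcript stood at 257 ± 13.4 CPM in high-iron and 228 ± 7.84 CPM in control-iron libraries, and that of its competitor Bach1 at 42.6 ± 3.77 and 43.0 ± 10.7 CPM in the same order. Of the 9 genes, 8 passed the filter on low values (1 CPM or more in at least 3 libraries) and 1 of these 8 was called at an adjusted p under 0.05 (limma, Benjamini-Hochberg over 12980 genes). Among all genes tested, 1.02% were called, and 0.832% were called as higher. DESeq2 called 2 of the 8 (Mafg and Sqstm1), against 3.27% of all genes, edgeR called none, against 0.863%, and limma with the replicate number as a block called 1 (Sqstm1), against 3.1%. An unadjusted p under 0.05 was found for 3 of the 8 by limma, against 12.1% of all genes. The log2 fold changes of the 8 were all above 0 by limma and had a median of 0.21, against -0.003 over all genes tested, of which 6428 were positive. Bach1 (0.01) and Nfe2l1 (0.04) were close to 0. Bach1 was negative with edgeR and DESeq2, and both changed sign in some fits with 1 library left out. The groups did not overlap, with the high-iron libraries above, for 3 of the 8 (Mafg, Sqstm1 and Nfe2l2), as for 9.46% of all genes tested (17.9% in either direction).

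**Figure D1:**
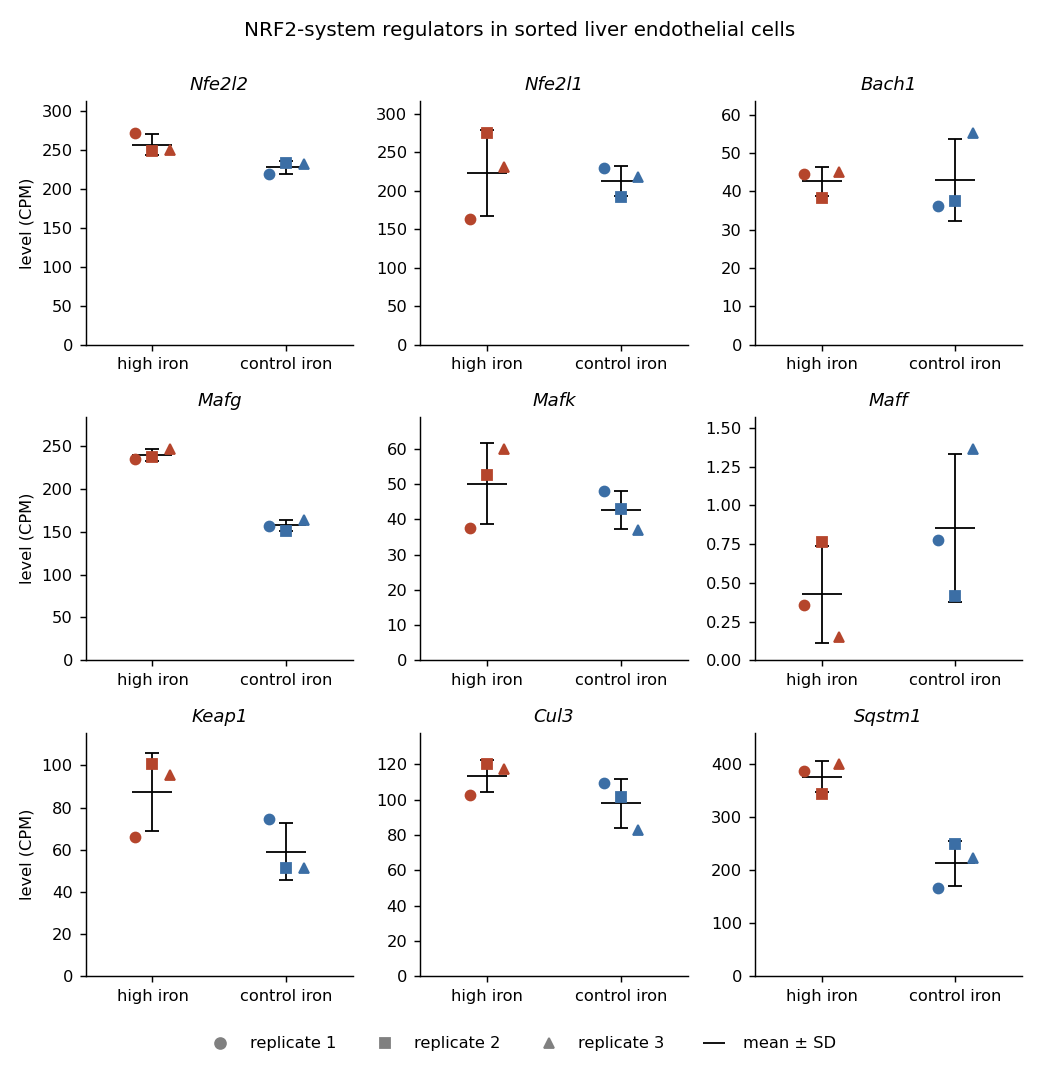
Level in CPM (vertical axis, each panel with its own scale from 0) of the 9 regulators in high-iron and control-iron libraries; symbols are replicates, bars the mean ± SD of 3 libraries. Mafg, Sqstm1 and, by a narrow margin, Nfe2l2 stand apart between groups, while Bach1, Nfe2l1, Mafk, Maff, Keap1 and Cul3 overlap. High-iron Mafg lies between 234 and 246 CPM and control-iron Mafg between 151 and 164 CPM.

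Nfe2l2 (ENSMUSG00000015839, chr2:75675513-75704641, minus strand, 6 merged exons in GENCODE M21 on GRCm38, which is mm10) was among the more abundant transcripts, above 92.9% to 94.5% of genes tested by RPKM, depending on the library. It had 272, 248 and 250.01 CPM in high-iron replicates 1 to 3, against 219, 233 and 232 CPM in control-iron replicates 1 to 3. Every high-iron library lay above every control-iron library, by a narrow margin. The log2 fold change was 0.17 ± 0.12 (SE), with a 95% interval of -0.09 to 0.44 and an adjusted p of 0.58, so a change larger than about 0.44 on the log2 scale lies outside the interval.

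Nfe2l1 (ENSMUSG00000038615, chr11:96817414-96829968, minus strand) encodes NRF1, a relative of NRF2 that is anchored in the endoplasmic reticulum and is known for driving proteasome genes. It had 163, 275 and 230.4 CPM in high-iron libraries, against 229.6, 191 and 217 CPM in control-iron libraries. The high-iron libraries held both the lowest and the highest value, and the groups overlapped. Its log2 fold change was 0.04 (95% interval -0.38 to 0.46, adjusted p = 0.95). The 30 tested proteasome subunits had a median log2 fold change of -0.01 with 0 called by limma, 1 at an unadjusted p under 0.05, and 0 called by edgeR or DESeq2. The most abundant of them, Psma7 and Psmb2, were at 164 ± 15.1 and 146 ± 18.3 CPM in high-iron libraries, against 187 ± 26.9 and 180 ± 44.1 CPM in control-iron libraries.

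Bach1 (ENSMUSG00000025612, chr16:87698945-87733346, plus strand) encodes the heme-sensing repressor of Hmox1 and the ferritin genes. It had 44.6, 38.3 and 45.0 CPM in high-iron libraries, against 36.2, 37.5 and 55.3 CPM in control-iron libraries. Control-iron replicate 3 was the highest of all, and the remaining 5 libraries lay between 36.2 and 45.0 CPM. The log2 fold change was 0.01 ± 0.18 (SE; 95% interval -0.40 to 0.42, adjusted p = 0.99), and its sign was negative with edgeR and DESeq2. Of 6 genes that BACH1 is known to repress, limma called 5 as higher (Hmox1, Slc40a1, Ftl1, Gclm and Nqo1), against 0.832% of all genes tested. All 6 were positive, with a median log2 fold change of 1.95. Hmox1, Gclm and Nqo1 are also on the list of NRF2 target enzymes below, so the lists are not independent. Both lists were chosen with earlier results of these data known, so these counts are descriptions. Hmox1, heme oxygenase, was at 736 ± 167 CPM in high-iron and 94.0 ± 27.3 CPM in control-iron libraries. Slc40a1, the iron exporter ferroportin, was at 1693 ± 299 and 484 ± 33.4 CPM. Hmox1 and Slc40a1 are also abundant in macrophages, whose markers were higher in the same libraries, and the part of those cells in the result was not tested.

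Mafg (ENSMUSG00000051510, chr11:120625117-120633600, minus strand) encodes a small MAF, a DNA-binding partner with no activation domain that both NRF2 and BACH1 need. Its level was 234, 236 and 246 CPM in high-iron libraries, against 157, 151 and 164 CPM in control-iron libraries. The groups were separated by far more than the spread within either. The log2 fold change was 0.60 ± 0.12 (SE; 95% interval 0.34 to 0.86, adjusted p = 0.0451 with limma). DESeq2 also called it (adjusted p = 3.6e-04) and edgeR did not (adjusted p = 0.0713). With any 1 library left out, the log2 fold change stayed between 0.57 and 0.63 while the adjusted p ran from 0.0549 to 0.26, so the call was lost in each of the 6 fits. Macrophage markers summed to 524, 263 and 360.0 CPM in high-iron replicates 1 to 3 and to 76.7, 177 and 95.2 CPM in control-iron replicates 1 to 3, and their part in the Mafg result was not tested. Exons of Sirt7 on the same strand, at 75.6 CPM on average over all libraries, overlap 2.21% of the exon length of Mafg.

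Mafk (ENSMUSG00000018143, chr5:139791513-139802653, plus strand), the second small MAF, had 37.6, 52.7 and 60.0 CPM in high-iron libraries, against 48.0, 43.0 and 37.0 CPM in control-iron libraries. The groups overlapped and the log2 fold change of 0.21 ± 0.19 (SE) did not pass (95% interval -0.22 to 0.64, adjusted p = 0.68). Maff (ENSMUSG00000042622, chr15:79346621-79359076, plus strand), the stress- and cytokine-inducible small MAF, was close to the limit of detection, with 7, 13 and 2 reads in high-iron libraries, against 15, 9 and 24 reads in control-iron libraries. These correspond to 0.36, 0.77 and 0.15 CPM in high-iron and 0.78, 0.42 and 1.37 CPM in control-iron libraries. The level of 3 reads, a floor that covers counting error only, is 0.154 to 0.231 CPM in high-iron and 0.139 to 0.171 CPM in control-iron libraries. Maff did not pass the filter and was not tested, and its groups overlapped.

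Per length, the small MAF pool was made mostly of Mafg. Mafg gave 75.3% ± 3.89 of the summed RPKM in high-iron and 69.5% ± 2.85 in control-iron libraries, Mafk 24.3% ± 3.91 and 29.3% ± 3.37, and Maff 0.41% ± 0.29 and 1.13% ± 0.63 (SD, n = 3 each). The summed level was 46.4, 50.6 and 53.7 RPKM in high-iron libraries, against 36.9, 34.6 and 35.6 RPKM in control-iron libraries. All high-iron sums were above all control-iron sums; the log2 difference was 0.49. This sum shares its data with the Mafg result and adds no independent evidence.

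Keap1 (ENSMUSG00000003308, chr9:21229730-21239361, minus strand), the adaptor and sensor that holds NRF2 for destruction, had 66.3, 100.5 and 95.3 CPM in high-iron libraries, against 74.7, 51.2 and 51.2 CPM in control-iron libraries. High-iron replicate 1 lay below control-iron replicate 1, so the groups overlapped. Its log2 fold change was 0.56 ± 0.20 (SE; 95% interval 0.10 to 1.02), with an unadjusted p of 0.022 and an adjusted p of 0.32, and did not pass with limma, edgeR or DESeq2. The opposite-strand gene Gm16754, at 1.47 CPM on average, overlaps 10.9% of its exon length. Cul3 (ENSMUSG00000004364, chr1:80264923-80340480, minus strand), the scaffold of the ligase, had 103, 119.9 and 117 CPM in high-iron libraries, against 109, 101 and 82.5 CPM in control-iron libraries. The groups overlapped and the log2 fold change was 0.22 (95% interval -0.11 to 0.54, adjusted p = 0.57).

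Sqstm1 (ENSMUSG00000015837, chr11:50199366-50210827, minus strand) encodes p62, which binds KEAP1 and carries it to autophagy, and is a known NRF2 target itself. It had 387, 343 and 399 CPM in high-iron libraries, against 166, 248 and 223 CPM in control-iron libraries. Every high-iron library exceeded every control-iron library. The log2 fold change was 0.84 ± 0.16 (SE; 95% interval 0.47 to 1.21), with an adjusted p of 0.0503 by limma, 0.0722 by edgeR and 5.5e-04 by DESeq2. Leaving out 1 library gave log2 fold changes of 0.67 to 0.96 and adjusted p-values of 0.0498 to 0.25. Among them only the fit without control-iron replicate 1, the lowest library, passed. The opposite-strand gene Mrnip overlaps 17.3% of its exon length, with a mean level of 2.48 CPM over all libraries. The kit does not mark strand, so reads in that stretch cannot be divided.

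**Figure D2:**
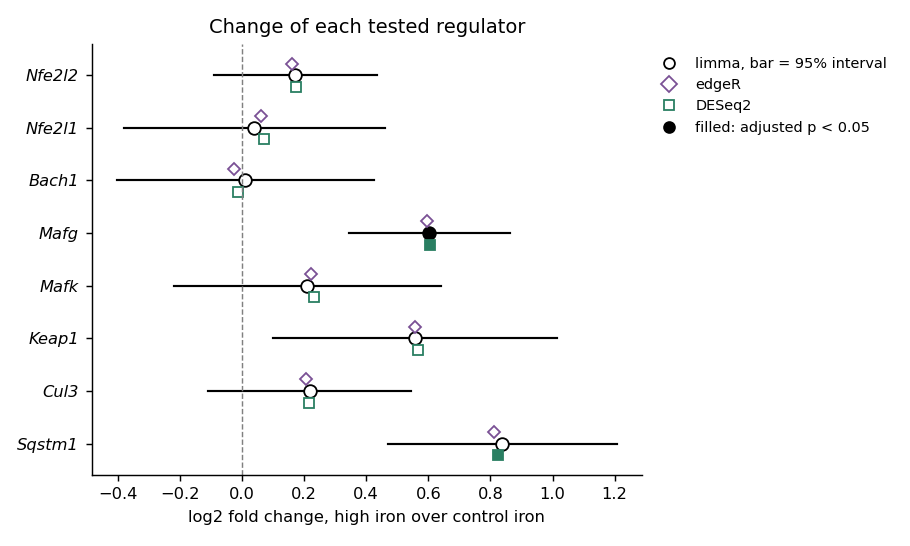
Log2 fold change of high iron over control iron (horizontal axis) for the 8 tested regulators; circles with 95% intervals are limma, diamonds edgeR and squares DESeq2, filled where the adjusted p is under 0.05. Mafg at 0.60 is filled for limma and DESeq2, Sqstm1 at 0.84 for DESeq2 alone, and the intervals of Nfe2l2, Nfe2l1, Bach1, Mafk and Cul3 include 0.

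Ordered by RPKM, the regulators spanned more than 2 orders of magnitude in both groups. In high-iron libraries the order was Sqstm1 (93.5 ± 7.39 RPKM), Nfe2l2 (67.8 ± 3.54), Mafg (37.7 ± 1.04), Nfe2l1 (27.0 ± 6.82), Cul3 (21.3 ± 1.73), Keap1 (19.6 ± 4.13), Mafk (12.3 ± 2.80), Bach1 (7.72 ± 0.68) and Maff (0.20 ± 0.15; SD, n = 3 each). In control-iron libraries it was Nfe2l2 (60.1 ± 2.07 RPKM), Sqstm1 (52.8 ± 10.5), Nfe2l1 (25.8 ± 2.37), Mafg (24.8 ± 1.01), Cul3 (18.4 ± 2.60), Keap1 (13.2 ± 3.03), Mafk (10.5 ± 1.35), Bach1 (7.79 ± 1.93) and Maff (0.40 ± 0.23). Neighbours with overlapping ranges were Nfe2l1 and Cul3, and Cul3 and Keap1, in the high-iron group. In the control-iron group they were Nfe2l2 and Sqstm1, Nfe2l1 and Mafg, Cul3 and Keap1, Keap1 and Mafk, and Mafk and Bach1. The order depends on the lengths used. For Nfe2l1 the deposited value is 8251 bases, 1.52 times the 5441 bases of merged exons in GENCODE M21. With the GENCODE length its mean was 41.0 RPKM in high-iron and 39.1 RPKM in control-iron libraries, above Mafg (28.0 RPKM) in the control-iron group and beside it (42.6 RPKM) in the high-iron group. With those lengths Sqstm1 (63.3 RPKM) stood above Nfe2l2 (60.0 RPKM) in the control-iron group too, with overlapping ranges.

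Ratios within a library, which do not depend on library scaling, overlapped between the diets. Bach1 transcripts per Nfe2l2 transcript were 0.112, 0.106 and 0.124 in high-iron libraries, against 0.113, 0.111 and 0.164 in control-iron libraries (exact permutation p = 0.60). Keap1 per Nfe2l2 was 0.206, 0.343 and 0.323 in high-iron libraries, against 0.2895, 0.187 and 0.188 in control-iron libraries (exact permutation p = 0.20). Control-iron replicate 3 was the highest for Bach1, and for Keap1 replicate 1 of each group lay among the values of the other group. Sqstm1 per Keap1 was 4.97 ± 1.38 in high-iron and 4.23 ± 1.55 in control-iron libraries (exact permutation p = 0.70), with the highest value in high-iron replicate 1 and the lowest in control-iron replicate 1. Nfe2l2 per Nfe2l1 was 2.65 ± 0.87 and 2.35 ± 0.29 (exact permutation p = 0.80), or 1.75 and 1.55 with the GENCODE lengths. These 4 ratios were tested two-sided over 20 splits with a smallest possible p of 0.10, so none could pass 0.05 whatever its size.

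**Figure D3:**
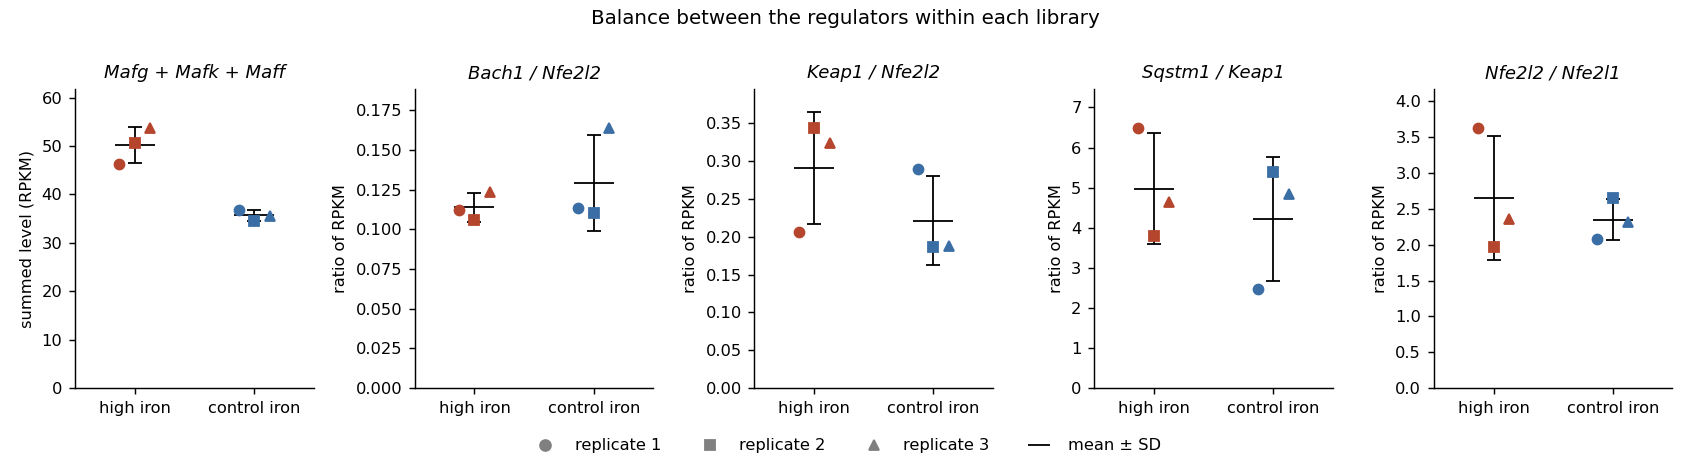
Summed small MAF level in RPKM and 4 ratios of RPKM (vertical axes from 0) in high-iron and control-iron libraries; symbols are replicates, bars the mean ± SD of 3 libraries. The small MAF sums lie at 46.4 to 53.7 RPKM in high-iron and 34.6 to 36.9 RPKM in control-iron libraries, while each ratio overlaps between groups.

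No partner of the regulators was called by limma, against 1.02% of all genes tested. At such a share, short lists without a call, here and below, say little about their genes. Over 8 lists of partners by role, 62 of 66 distinct genes were tested with 9 at an unadjusted p under 0.05 by limma, where 12.1% of all genes had such a p. edgeR called 0, against 0.863% of all genes, and DESeq2 called 2, against 3.27% of all genes. These shares lie near the background. The 2 were Chd6 and Tbk1, named here after their values were seen. Over the 62 genes the median log2 fold change was 0.04, and the single values ran from -0.76 to 0.57.

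Among the other CNC and large MAF factors 3 of 7 were tested and none was called; their median was -0.63 on the log2 scale. Maf, a large MAF that liver sinusoidal endothelium expresses highly, was at 1428, 1035 and 1168 CPM in high-iron libraries, against 1376, 1640 and 2857 CPM in control-iron libraries. Control-iron replicate 3 stood above all others, the groups overlapped, and the log2 fold change of -0.63 ± 0.26 (SE) did not pass (adjusted p = 0.38). The relatives Nfe2 and Nfe2l3 averaged under 1 CPM in both groups and were not tested.

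Of 9 tested genes of the CUL3 ligase and its neddylation none was called, with a median of -0.02, and the most abundant, Ube2m, an enzyme that conjugates NEDD8, was at 112 ± 4.19 and 109 ± 6.88 CPM in high-iron and control-iron libraries. Nedd8 itself was at 80.5 ± 9.40 and 105 ± 32.1 CPM in the same order. KEAP1-binding or NRF2-shielding partners, 7 tested, had a median of 0.06, with Sesn1, a stress-induced sestrin, at 93.0 ± 3.81 CPM in high-iron and 90.1 ± 15.3 CPM in control-iron libraries, and Dpp3, a peptidase that binds KEAP1, at 41.4 ± 5.32 and 40.8 ± 5.22 CPM. KEAP1-independent turnover, 8 tested, had a median of 0.06. There Gsk3b, the kinase that marks NRF2 for the SCF ligase, was at 133 ± 11.3 CPM in high-iron and 149.7 ± 27.0 CPM in control-iron libraries, and Skp1a, a subunit of that ligase, at 131 ± 6.91 and 146 ± 20.7 CPM.

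Cofactors of NRF2 on chromatin, 8 tested, had a median of 0.03. Rxra, a nuclear receptor known to restrain NRF2, was at 200.5 ± 23.6 CPM in high-iron and 159.6 ± 16.1 CPM in control-iron libraries (log2 fold change 0.33, adjusted p = 0.40), and Ncoa3, a coactivator, at 176 ± 24.8 and 174 ± 59.8 CPM. Chd6, a chromatin remodeler, was at 43.1 ± 5.98 CPM in high-iron and 67.9 ± 10.9 CPM in control-iron libraries (adjusted p = 0.13 by limma, 0.031 by DESeq2). Genes that process NFE2L1, 8 tested, had a median of 0.11. Sel1l of the endoplasmic reticulum degradation machinery was at 256 ± 68.9 and 262 ± 33.2 CPM and Ogt, the O-GlcNAc transferase, at 147 ± 21.1 and 188 ± 40.3 CPM, high-iron first in each case. BACH1 turnover genes, 4 tested, had a median of 0.12, with Rbck1, a ubiquitin ligase subunit, at 154.6 ± 9.80 CPM in high-iron and 139.7 ± 29.8 CPM in control-iron libraries and Fbxl17, an F-box protein, at 87.0 ± 6.04 and 90.4 ± 11.4 CPM.

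The autophagy receptors and partners of p62, all 16 tested, had a median log2 fold change of 0.11 with 12 positive and none called by limma. Map1lc3b, the LC3 protein that p62 binds on forming autophagosomes, was at 326 ± 19.2 CPM in high-iron and 309 ± 20.7 CPM in control-iron libraries, and Gabarap, a relative of LC3, at 259 ± 19.9 and 264 ± 69.4 CPM. Tbk1, the kinase that phosphorylates p62, was at 100.8 ± 5.72 CPM in high-iron and 72.4 ± 4.28 CPM in control-iron libraries (adjusted p = 0.14 by limma, 0.029 by DESeq2). For immediate-early and dissociation-response genes the median was -0.003 on the log2 scale, over 15 tested. Socs3, an inhibitor of cytokine signalling, was the single one of them called, at 72.0 ± 3.69 CPM in high-iron and 36.8 ± 6.78 CPM in control-iron libraries (adjusted p = 0.031, up to 0.18 with 1 library left out).

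**Figure D4:**
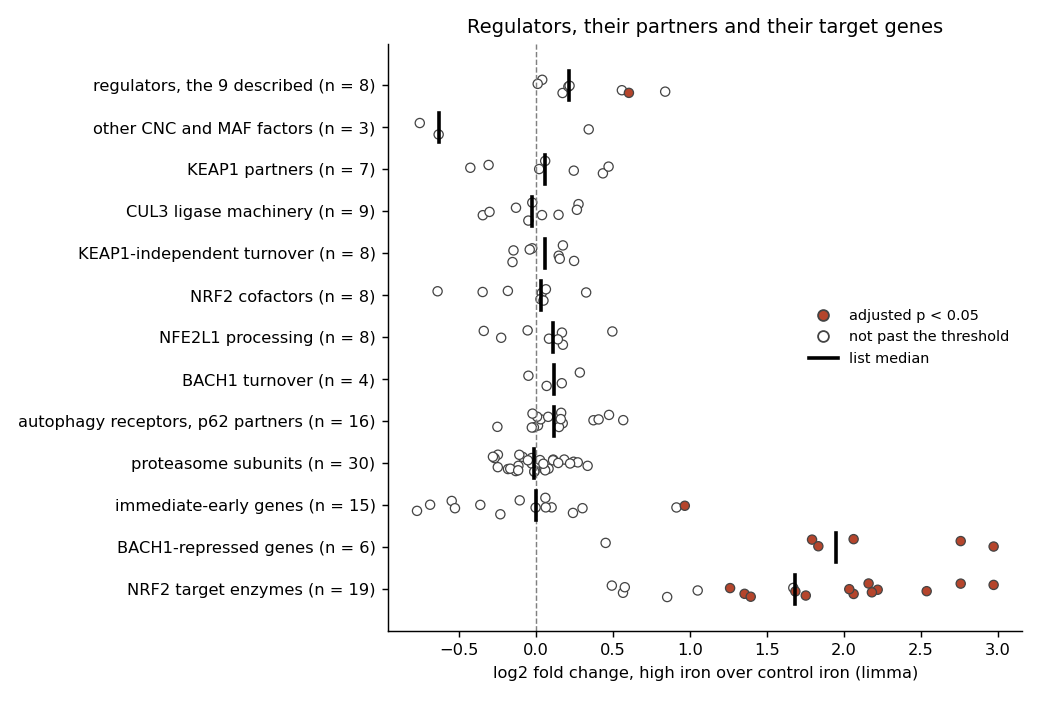
Log2 fold change of high iron over control iron (horizontal axis, limma) of every tested gene in 13 lists, with the number tested in brackets; filled points have an adjusted p under 0.05 and bars are list medians. Medians of 7 partner lists lie between -0.02 and 0.12 and that of the other CNC and large MAF factors at -0.63, with the 8 tested regulators at 0.21, the BACH1-repressed genes at 1.95 and the NRF2 target enzymes at 1.68. Hmox1, Gclm and Nqo1 are plotted both as BACH1-repressed genes and as NRF2 target enzymes.

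Most of the enzymes that NRF2 is known to induce rose. Of 20 listed, 19 were tested and limma called 13 as higher, against 0.832% of all genes tested. The list was chosen with earlier results of these data known, so the count is a description and not an independent test. edgeR called 13 and DESeq2 17, against 0.863% and 3.27% of all genes. The 19 values were all above 0, with a median of 1.68 on the log2 scale. The 13 called by limma were Hmox1, Nqo1, Gclc, Gclm, Txnrd1, Srxn1, G6pdx, Pgd, Gsr, Gstm1, Osgin1, Aox1 and Akr1b8, with log2 fold changes from 1.26 (Pgd) to 2.97 (Hmox1), beside 0.60 for Mafg. The 6 that limma did not call were Tkt, Taldo1, Me1, Gsta3, Ephx1 and Prdx1, at 0.49 (Ephx1) to 1.67 (Me1). With 1 library left out 10 to 13 were called. The summed level of all 20 was 4605, 5074 and 5949 CPM in high-iron libraries, against 1328, 1822 and 1627 CPM in control-iron libraries. Macrophage markers were highest in high-iron replicate 1, which had the lowest target sum of its group, and in control-iron replicate 2, which had the highest of its group. The part of such cells in the result was not tested.

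The expression pattern most like that of Mafg over the 6 libraries, by Pearson correlation of log2(CPM + 1) among 10199 genes with a mean of 5 CPM or more, was that of Aox1, an aldehyde oxidase (r = 0.9986). G6pdx, the first enzyme of the pentose phosphate pathway, followed (r = 0.992), then Gpr155 (r = 0.991), Slc9a9 (r = 0.990) and Comtd1 (r = 0.989). In all 5 every high-iron library lay above every control-iron library, as for Mafg. A separation in the same direction by itself favours a high correlation over 6 libraries. Aox1 and G6pdx passed the test, at 70.8 ± 8.05 and 41.6 ± 6.87 CPM in high-iron libraries, against 16.5 ± 1.69 and 15.6 ± 1.36 CPM in control-iron libraries. Slc9a9 was at 302 ± 6.54 CPM in high-iron and 205 ± 5.03 CPM in control-iron libraries and did not pass (adjusted p = 0.060), nor did Gpr155 and Comtd1 (adjusted p = 0.33 and 0.44).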

How the data were processed

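RNA of sorted liver endothelial cells was sequenced in 6 libraries, 3 per diet, from low-input cDNA libraries per the labels' protocols. STAR, HTSeq, edgeR and mm10 are named in the submitters' processing notes; no version or role is stated there. The authors deposited a normalized signal named CPM (reads over a scaled library size, column totals 964515 to 1025619) and RPKM values, which equal CPM per kilobase of the deposited gene length. All 114253 values above 0 (100%) came out as whole reads, with a tolerance of 0.001 read; counts above come from them. The scaling matched edgeR's TMM factors.

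The test was limma 3.58.1 (R 4.3.3) on log2(CPM + 1) with an intensity trend, two-sided, 4 residual degrees of freedom, on 12980 genes with at least 1 CPM in at least 3 libraries; folds on this scale understate low genes. On the recovered reads edgeR 4.0.16 called 112 genes and DESeq2 1.42.0 called 424, against 133 by limma. The limma p-values set a group difference against the spread between these libraries, with each gene's variance drawn toward a trend over all genes tested. Near-identical copies of the regulators were searched among GENCODE M21 transcripts, on both strands, with BLAST+ 2.17.0 at 95% identity. The only matches of at least 10% of a transcript were those with Gm16754 (Keap1) and Mrnip (Sqstm1). These are the overlapping opposite-strand genes given above, and not separate copies. Promoter sequences are from RefSeq (GRCm38.p6).

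The regulators and all lists were chosen with earlier results of these data known, so no p-value for a list is given. Named genes were the 9 regulators, called genes of each list or else its 2 most abundant tested genes, and the 5 genes most like each called regulator; 1 gene that this rule names is not reported here. All listed genes were found, Skp1 as Skp1a and Adgre1 through its identifier.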

Additional observations from a re-analysis of the deposited data

How the results depend on the processing

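Nfe2l2, Keap1, Mafk and Cul3 kept a positive log2 fold change and stayed short of the threshold, and Mafg and Sqstm1 kept their direction, under each pseudocount, filter, scaling, tool, replicate block and left-out library tried. The number of regulators called, 1 of 8, was 0 with no filter and with edgeR, 2 with DESeq2 and with DESeq2 size factors, and 0 to 1 with 1 library left out. Genes called in all, 133, were 34 with no filter, 424 with DESeq2, 402 with the replicate block and 27 to 183 with 1 library left out, lowest without high-iron replicate 3. Mafg (0.60) missed the threshold with no filter (adjusted p = 0.093), with scaling to total reads (0.60, adjusted p = 0.054), with edgeR and with each library left out. Sqstm1 passed with DESeq2 size factors (0.85, adjusted p = 0.048), with total reads (0.83, adjusted p = 0.042) and with DESeq2. Bach1 turned negative with edgeR (-0.027) and DESeq2 (-0.014) and ranged from -0.10 to 0.20 with 1 library left out, where Nfe2l1 ranged from -0.13 to 0.25. The cause of these changes was not tested. The partner and target genes called, 16 of 129, stayed within 1.5 times under every alternative, and the ratios stayed within their spread between replicates. Of the log2 differences of the ratios 3 changed sign: Sqstm1 per Keap1 (0.28) was -0.073 without control-iron replicate 1, Nfe2l2 per Nfe2l1 (0.13) was -0.12 without high-iron replicate 1, and Bach1 per Nfe2l2 (-0.16) was 0.022 without control-iron replicate 3. With the replicate number as a block, Sqstm1 passed (adjusted p = 0.011) and Mafg did not (adjusted p = 0.054). The numbers mark no shared batch in the labels, and same-numbered libraries deviated together with r = 0.13, 0.32 and 0.063. High-iron replicates 1 and 3 correlated better with a control-iron library of another number. The GENCODE length was added after seeing the data. Depth limits Maff, at 2 to 24 reads.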
